A study of Fundulus heteroclitus with 8 samples.

Results

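Splicing factors, heterogeneous nuclear ribonucleoproteins (hnRNPs) and related RNA-binding proteins were followed in mummichog testis. The mummichog, Fundulus heteroclitus, is a killifish of Atlantic salt marshes, and all fish were adult males. The members were the non-control array probes whose design name mentions a splicing factor, a ribonucleoprotein, the spliceosome, pre-mRNA, an arginine/serine-rich protein, an RNA-binding protein or motif, or cisplatin resistance-associated overexpressed protein. Names of ribosomal and signal recognition proteins were left out, and the rule reads names alone. This gave 94 of 7157 probes. They carry 81 of the 3706 product names of the array design and lie on 91 of its sequence entries. Testis RNA was hybridised on 8 single-colour Cy3 arrays, all on 1 slide and with 1 array per sample. The androgen 5α-dihydrotestosterone (DHT), which unlike testosterone is no substrate of aromatase, was given in the water for 21 days. The DHT50 group holds 4 samples of males exposed to 50 µg/L, and the control group holds 4 samples of unexposed males (0 µg/L). Replicates are described in the labels as biological and individual, whether 1 sample is 1 fish is not stated, and the p-values measure the spread between these samples. Arrays of males held at 5 µg/L, which the labels also mention, were not analysed here.

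Splicing removes introns from pre-mRNA. The spliceosome that does so is built from small nuclear ribonucleoproteins (snRNPs), each a small nuclear RNA held by a ring of Sm or Sm-like (LSm) proteins and joined by proteins of its own. SR proteins, rich in arginine and serine, mostly help the machinery to recognise exons, while many hnRNPs coat the transcript and often repress the use of a splice site. Testis is known for an unusually rich repertoire of alternative transcripts, and its germ cells use several splicing regulators of their own. Roles given below are those known from human and mouse proteins of the same name unless another species is named, since most names of this design are those of the closest protein in another organism.

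A level is the log2 processed signal of a probe minus the 75th percentile of its array, averaged over 2 spots, so that 0 means as bright as that percentile. Levels of different probes cannot be ranked against each other. Only probes that stood clear of their local background on 4 or more arrays were tested, by the scanner software's own flag, which kept 5989 of 7157 probes and 91 of the 94 members. The 3 members left out were well above background on 0 arrays. They were hnRNP U, a nuclear scaffold and RNA-binding protein, and 2 of the 4 probes of probable RNA-binding protein 25, a splicing regulator. Of the 91 tested members 72 were well above background on all 8 arrays, and each of the other 19 was dim on DHT50 2. The brightness of an array, its 75th percentile of log2 signal, was 10.95, 7.97, 9.13 and 9.50 on DHT50 arrays 1 to 4, against 11.21, 9.99, 10.09 and 10.03 on control arrays 1 to 4, a 9.44-fold range. DHT50 1, 2 and 3 lay in slide row 1 with control 1, and DHT50 4 lay in slide row 2 with controls 2, 3 and 4. Correlation of levels over the members was 0.815 to 0.969 between DHT50 arrays, 0.963 to 0.977 between control arrays, and 0.798 to 0.976 between arrays of different groups. As a check of the tissue, DEAD-box protein 4 (vasa, a germ cell helicase) and inhibin alpha, a hormone subunit of Sertoli cells, were well above background on 8 of 8 arrays, cytochrome P450 17A1 of the steroid-making cells on 7, and steroidogenic acute regulatory protein on 2 of 4 DHT50 and 4 of 4 control arrays. Of 19 tested liver markers 4 had a change above 0 and 15 below (median -1.56), with a median deviation of 2.73 on control 1 and of -1.42 to 1.02 on the other arrays. The medians were 0.47 for 9 red blood cell, 0.27 for 20 muscle, 0.31 for 20 immune cell and 0.04 for 7 somatic testis markers, and the part of these cells in the results was not tested.

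No member passed the test of DHT50 against control. Limma called 0 of 91 members at an adjusted p under 0.05, where it called 0 (0%) of all 5989 tested probes, and the lowest adjusted p of a member was 0.685 (Benjamini-Hochberg over all tested probes). At an unadjusted p under 0.05 there was 1 member in all (4.71% of all tested probes), with 1 above control (3.29%) and 0 below (1.42%). The members' balance of signs differed from that of all tested probes. This difference was not tested, and it was smaller in slide row 2 alone, as given below. The change was below 0 in 55 of 91 members, or 60.4%, where it was below 0 in 46.4% of all tested probes. It was above 0 in 36 members, or 39.6%, against 53.6% of all tested probes. The median log2 change, DHT50 minus control, was -0.12 over the members and 0.06 over all tested probes, and the quartiles of the members were -0.52 and 0.18. With the brightest probe of each of 80 product names the median was also -0.12, with 33 above 0 and 47 below. Changes larger than 1 on the log2 scale were found in 5 members, or 5.49%, against 11.5% of all tested probes. The median standard error (SE) of a change was 0.41 for the members. The change was larger than its own SE in 48 of 91 members, against 2842 of 5989 tested probes. In whole testis RNA, fewer cells of a type and less RNA per cell cannot be told apart.

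The count at an unadjusted p under 0.05 rested on which arrays were used. It was 20 of 91 members without DHT50 1, when 23.2% of all tested probes passed, 5 without DHT50 4 (5.58% of all) and 2 without control 2 (2.81%). It was 1 without DHT50 2 (3.26% of all), DHT50 3 (2.29%), control 1 (2.59%), control 3 (5.93%) or control 4 (3.74%). With the replicate number as a block it was 8 (9.97% of all), with the slide row as a block 3 (6.56%), in slide row 1 alone 2 (7.11%) and in slide row 2 alone 4 (5.31%). With arrays weighted by their quality it was 21 (21.4% of all). In slide row 1 alone 49 of 91 members were below 0 (53.8%, median -0.09), against 39.0% of all tested probes (median 0.33). In slide row 2 alone 45 of 91 were below 0 (49.5%, median 0.0022), against 45.2% of all tested probes (median 0.07). Single changes also depended on DHT50 2: without it 55 of 91 members had less than 0.667 of their change or the other sign, and without DHT50 1 the change of 36 was over 1.5 times as large. With array brightness as a covariate 73 of 91 members were below 0 (80.2%), and so were 65.0% of all tested probes.

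**Figure D1:**
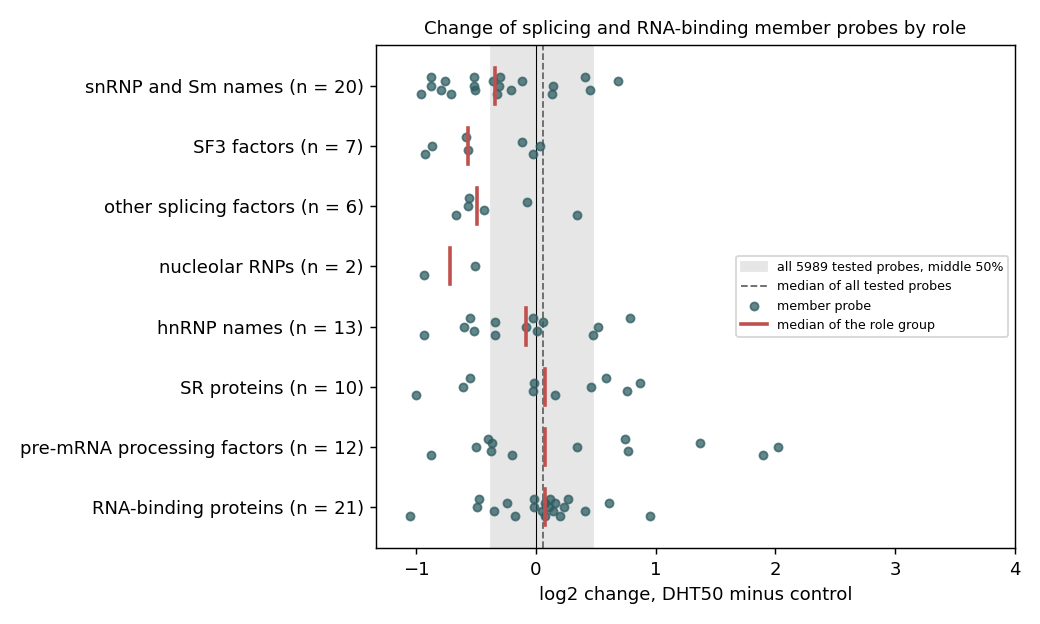
Log2 change (DHT50 minus control, horizontal axis) of the 91 tested members, 1 point per probe, in rows by role; the red bar is the median of a role group, the dashed line the median of all 5989 tested probes (0.06) and the grey band their quartiles (-0.38 to 0.48). The medians of the snRNP, SF3, other splicing factor and nucleolar groups lie between -0.72 and -0.34, and those of the SR, hnRNP, pre-mRNA processing and RNA-binding groups between -0.08 and 0.08.

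Most probes named for the core of the spliceosome had a change below 0. Of 20 tested probes with an snRNP or Sm name 15 (75%) had a change below 0 and 5 above, with a median of -0.34. Over all tested probes 46.4% were below 0 (median 0.06). Of the 20 probes, 0 passed at an unadjusted p under 0.05. The count below 0 ranged from 14 to 19 of 20 under the alternatives tried with both slide rows and all probes. In slide row 1 alone it was 14 (70%, median -0.47), against 39.0% of all tested probes. In slide row 2 alone it was 11 (55%, median -0.07), against 45.2% of all tested probes. Without DHT50 2, the dimmest array, it was 16 with a median of -0.33. DEAD-box protein 4, the germ cell marker, also had a change below 0. Its level was -0.02, -2.08, -2.37 and -1.59 on DHT50 arrays 1 to 4, against 0.03, -0.82, -1.17 and -0.24 on control arrays 1 to 4, a change of -0.96 ± 0.54 (SE). Its part in the snRNP result was not tested.

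The Sm proteins form the ring that each spliceosomal small nuclear RNA, apart from U6, is threaded through. Their 8 probes gave 7 changes below 0 and 1 above, from -0.87 to 0.41 with a median of -0.52. Sm D3 had levels of 1.23, -0.79, 0.46 and 1.58 on DHT50 arrays 1 to 4, against 1.65, 1.81, 0.87 and 1.65 on control arrays 1 to 4. DHT50 2 and 3 were below every control, DHT50 1 and 4 were within the control range, and the change was -0.87 ± 0.52 (SE, n = 4 per group). It was -0.40 without DHT50 2 and 0.14 within slide row 2. Sm G stood at -0.44, -1.41, -1.46 and -0.31 in DHT50 testes, against -0.28, 0.28, -0.78 and 0.18 in control testes, with DHT50 2 and 3 again below every control and a change of -0.76 ± 0.41. Sm D2 stood at 1.61, 1.01, 0.97 and 2.03 in DHT50 testes, against 1.77, 2.33, 1.88 and 1.72 in control testes. Here DHT50 1, 2 and 3 were below every control while DHT50 4 was not, and the change was -0.52 ± 0.35. Sm F stood at 1.58, 1.12, 0.93 and 2.47 in DHT50 testes, against 2.19, 2.40, 1.55 and 2.01 in control testes. DHT50 4 was above every control and DHT50 2 and 3 were below, for a change of -0.52 ± 0.40. Sm E showed the same spread, with 0.94, 0.14, 0.47 and 1.51 in DHT50 testes, against 1.13, 1.43, 0.61 and 1.09 in control testes, and a change of -0.30 ± 0.38, or -0.09 without DHT50 2. In 6 of the 8 probes at least 2 DHT50 arrays were below every control, a pattern that was not counted over all tested probes. DHT50 2 was the lowest of all arrays in 3 (24.8% of all tested probes) and DHT50 3 in 3 (8.40%). The 8 probes share the same arrays. Within slide row 1 the difference was below 0 in 6 of 8 probes (median -0.68), against 39.0% of all tested probes. Within slide row 2, where DHT50 4 is the one DHT50 array, it was below 0 in 2 of 8 (median 0.14), against 45.2%.

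Sm D1 was read by 3 probes that gave different changes. The probe nearer the start of its design entry had 0.77, -1.09, -0.83 and -0.18 on the DHT50 arrays, against 0.37, 0.38, 0.55 and 0.57 on the control arrays, with 3 DHT50 arrays below every control and 1 above, and a change of -0.80 ± 0.42. The probe farther along the same entry had 3.56, 3.85, 3.59 and 4.36 on the DHT50 arrays, against 3.19, 4.47, 4.06 and 4.11 on the control arrays, where the groups overlapped throughout and the change was -0.12 ± 0.37. Probable Sm D1, a different entry, was clear of background on 2 of 4 DHT50 and 4 of 4 control arrays, with a change of 0.41 ± 0.53. With brightness as a covariate the changes of the 3 probes were -0.32, -0.33 and -0.25.

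**Figure D2:**
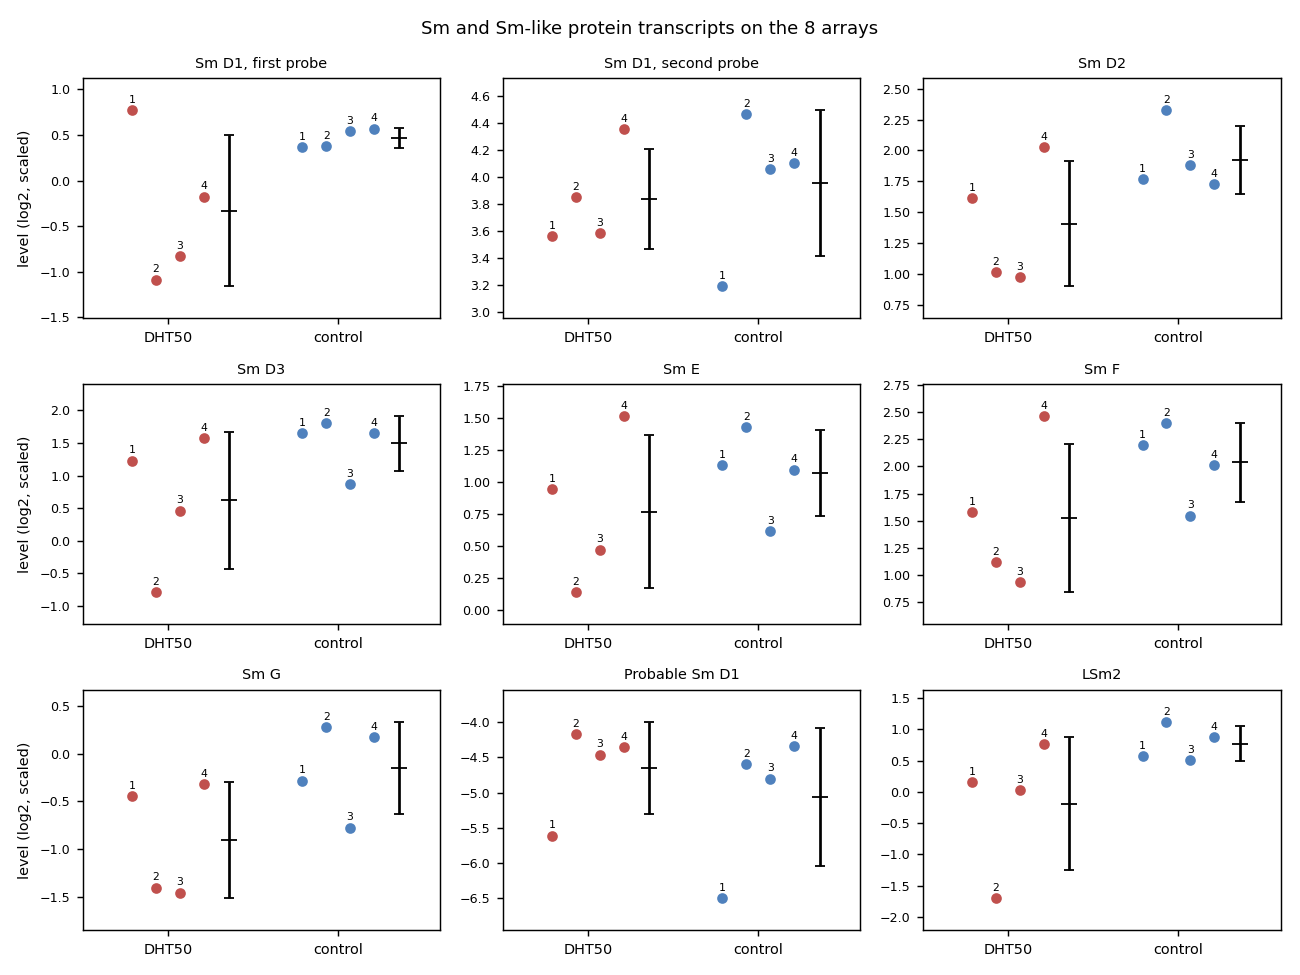
Level (log2, scaled to the 75th percentile of the array; vertical axis, own range in each panel) of the Sm ring probes and LSm2 on each array, with DHT50 in red on the left and control in blue on the right, numbered by replicate; black bars are mean ± SD of 4 arrays. In 7 of the 9 panels DHT50 2 and 3 sit below every control; the panels of the second Sm D1 probe and of probable Sm D1 are the exceptions.

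LSm2 is part of the LSm ring that holds U6, the small nuclear RNA at the catalytic centre. Its levels were 0.16, -1.70, 0.03 and 0.77 in DHT50 testes, against 0.58, 1.12, 0.51 and 0.88 in control testes. DHT50 1, 2 and 3 were below every control, and the change was -0.96 ± 0.51, or -0.45 without DHT50 2. The partners of LSm2 are not members by name and were taken as a list with the survival motor neuron protein (SMN), which loads Sm rings onto small nuclear RNA. All 6 names of that list had a change below 0, with a median of -0.77, where 46.4% of all tested probes were below 0. Of these names 0 passed at an adjusted or an unadjusted p under 0.05 (limma). The list's median deviation from the probe means was 0.33, -1.17, -0.61 and 0.10 on DHT50 arrays 1 to 4. On control arrays 1 to 4 it was 0.30, 0.54, 0.37 and 0.34. LSm6 stood at 0.46, -0.97, -0.70 and 0.46 in DHT50 testes, against 0.54, 0.98, 0.45 and 0.48 in control testes, a change of -0.80 ± 0.41. LSm5 stood at -1.30, -1.86, -1.92 and -1.11 in DHT50 testes, against -0.98, -0.92, -0.96 and -0.89 in control testes, a change of -0.62 ± 0.31. For LSm5 every DHT50 array was below every control, a pattern met by 0.952% of all tested probes, and the control arrays lay close together. SMN stood at 1.87, 0.33, 0.68 and 1.48 in DHT50 testes, against 1.61, 2.01, 1.77 and 1.90 in control testes, a change of -0.73 ± 0.39 with 3 DHT50 arrays below every control. LSm2 and these names were read by 9 probes. Within slide row 1 the difference was below 0 in 9 of 9 (median -0.84), against 39.0% of all tested probes. Within slide row 2 it was below 0 in 9 of 9 (median -0.26), against 45.2%. The 9 probes share the same arrays. DHT50 2 was the lowest of all arrays in 7 of them (24.8% of all tested probes) and DHT50 3 in 2 (8.40%). Control 1 is the only control in row 1, and DHT50 4 is the only DHT50 array in row 2.

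Other proteins of the U5, U4/U6 and U1 particles had changes from -0.88 to 0.14. The GTPase of the U5 snRNP (EFTUD2 in human), which helps to remodel the spliceosome, had levels of 1.69, -0.11, 0.70 and 1.67 on the DHT50 arrays, against 1.70, 2.14, 1.62 and 2.02 on the control arrays. DHT50 2 and 3 were below every control and DHT50 1 and 4 were within the control range, and the change was -0.88 ± 0.44. It was -0.51 without DHT50 2 and -0.25 within slide row 2. Thioredoxin-like protein 4A, a small U5 protein, had a change of -0.36 ± 0.31, and DDX23, the U5 helicase that displaces U1 from the splice site, 0.14 ± 0.43. For the U4/U6 particle, Prp4 had -0.32 ± 0.30, NHP2-like protein 1, which binds the U4 RNA, -0.51 ± 0.32, and the cyclophilin PPIase H -0.21 ± 0.31. The U1 70 kDa protein, which marks the start of an intron with U1, had 0.14 ± 0.87 and spread from -5.84 to -2.96 over the DHT50 arrays and from -6.35 to -2.19 over the control arrays.

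The U2 snRNP and its helpers recognise the branch site and the end of the intron. U2 A′ and U2 B″ bind the U2 RNA side by side. U2 A′, not well above background on DHT50 2, had a change of -0.31 ± 0.29, and the 2 probes of U2 B″ had 0.45 ± 0.47 and 0.69 ± 0.65. The signs of the U2 B″ probes turned with brightness as a covariate, to -0.12 and -0.27. U2AF 35 kDa, which reads the last bases of the intron, stood at 0.07, -1.01, -1.04 and -1.18 in DHT50 testes, against -0.36, -0.0016, 0.06 and -0.01 in control testes. DHT50 2, 3 and 4 were below every control and DHT50 1 was above every control, and the change was -0.71 ± 0.36. It was -0.30 within slide row 1 and -1.20 within slide row 2.

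SF3A and SF3B are the protein complexes that clamp U2 onto the branch site. Of 7 probes 6 had a change below 0 and 1 above, with a median of -0.57, and 0 passed at an unadjusted p under 0.05. Over all tested probes 46.4% were below 0. The median of the 7 probes was -0.06 within slide row 2, -0.31 within slide row 1 and -0.23 with normexp background correction. Normexp is another way to take the local background off the signal, here with an offset of 50 added to each signal. An added offset makes log2 differences of dim probes smaller, and its part in the normexp values was not tested. Splicing factor 3B subunit 5 stood at -1.72, -3.95, -3.55 and -2.92 in DHT50 testes, against -1.87, -2.31, -2.22 and -2.04 in control testes. DHT50 1 was above every control and the other DHT50 arrays were below every control, for a change of -0.93 ± 0.47 (SE), or -0.46 under normexp. With brightness as a covariate this change was -0.29. The probe was not well above background on DHT50 2. Splicing factor 3a subunit 2 stood at -5.12, -5.96, -4.72 and -4.42 in DHT50 testes, against -4.51, -4.13, -4.53 and -3.58 in control testes, and was well above background on 2 of 4 DHT50 arrays and 4 of 4 control arrays. DHT50 1, 2 and 3 were below every control and DHT50 4 was not, and the change was -0.87 ± 0.41, or -0.23 under normexp. PHD finger-like domain protein 5A, a small SF3B subunit, had 1.05, -0.90, -1.35 and -0.49 in DHT50 testes, against -0.10, 0.61, 0.08 and -0.03 in control testes, again with DHT50 1 above every control and the other DHT50 arrays below. Its change was -0.57 ± 0.50. The branch site protein p14 had -0.58 ± 0.39 on one probe and -0.03 ± 0.50 on another, the latter not well above background on DHT50 2. Splicing factor 3A subunit 3 had 0.04 ± 0.31, and splicing factor 3b subunit 4 had -0.11 ± 0.59. For the last, DHT50 3 stood at 1.02 while the other DHT50 arrays were between 3.30 and 3.60 and the control arrays between 2.40 and 3.68, and its change without DHT50 3 was 0.50.

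The SR proteins showed no common direction, with 5 of 10 probes above 0 and 5 below, a median of 0.07 and 0 at an unadjusted p under 0.05. A pair of classic shuttling SR proteins was at the low end, next to a probe of arginine/serine-rich 6 at -0.55. The SR-related names were at the high end. Arginine/serine-rich 7 (SRSF7), which promotes exon inclusion and mRNA export, stood at 0.58, -1.70, -1.28 and -0.42 in DHT50 testes, against 0.61, 0.43, -0.10 and 0.27 in control testes. Every DHT50 array but DHT50 1 was below every control, and the change was -1.01 ± 0.49 (SE), or -0.34 with brightness as a covariate. Arginine/serine-rich 3 (SRSF3), the smallest of the family, stood at 1.20, -0.02, 1.22 and 1.09 in DHT50 testes, against 1.50, 1.45, 1.04 and 1.93 in control testes. Only DHT50 2 was below every control, and the change was -0.61 ± 0.38, or -0.32 without that array. Arginine/serine-rich 11, an SR-related protein of the spliceosome, stood at 1.92, 4.61, 3.56 and 3.76 in DHT50 testes, against 2.05, 3.23, 2.90 and 2.20 in control testes. Every DHT50 array but DHT50 1, which was the lowest of all, was above every control, for a change of 0.87 ± 0.56, or 0.49 without DHT50 2 and 0.08 with brightness as a covariate. The 3 probes named arginine/serine-rich 12, an SR-related regulator that acts on other SR proteins, had 0.46 ± 0.39, 0.76 ± 0.52 and 0.59 ± 0.56. With brightness as a covariate these changes were -0.02, 0.89 and -0.20. The probes at 0.76 and 0.59 were not well above background on DHT50 2.

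The 4 probes of arginine/serine-rich 6 (SRSF6), a repressor and activator of exons in skin and muscle transcripts, lie on 4 design entries. Their changes were -0.55 ± 0.36, -0.03 ± 0.28, -0.02 ± 0.27 and 0.16 ± 0.38. The lowest of these had 0.95, -0.20, 0.08 and 0.34 on the DHT50 arrays, against 0.51, 1.13, 0.53 and 1.18 on the control arrays, and 3 of 4 DHT50 arrays were below every control. The pair near 0 had the smallest ranges over the 8 arrays of any member. One ran from 2.20 to 2.57 over the DHT50 arrays and from 2.27 to 2.49 over the control arrays, and the other from 1.85 to 2.15 over the DHT50 arrays and from 1.84 to 2.11 over the control arrays. The sources used here do not say whether the 4 entries are transcript forms or gene copies.

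Among 13 tested probes with an hnRNP name 5 had a change above 0 and 8 below, with a median of -0.08 and 0 at an unadjusted p under 0.05. HnRNP K, which binds runs of C in RNA and DNA, had every DHT50 array below every control. It was the 1 member of 91 (1.1%) with this pattern, which was met by 0.952% of all tested probes. It stood at -0.96, -1.73, -0.92 and -1.14 in DHT50 testes, against -0.76, -0.80, -0.85 and -0.27 in control testes. The nearest arrays of the groups were DHT50 3 and control 3, and the change was -0.51 ± 0.32 (SE, limma adjusted p = 0.685). It was -0.44 within slide row 1, -0.50 within slide row 2 and between -0.60 and -0.33 with any 1 array left out. Since every DHT50 array was below every control, the sign of these values was fixed in advance. RNA-binding protein squid, an hnRNP named from Drosophila, where it helps to localise maternal RNA in the egg, stood at 1.17, -0.90, 0.13 and 0.33 in DHT50 testes, against 1.21, 0.77, 1.32 and 1.17 in control testes. Again every DHT50 array but DHT50 1 was below every control, and the change was -0.94 ± 0.44. Without DHT50 2 it was -0.57.

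HnRNP A1, a repressor of exons that opposes SR proteins, had a change of -0.34 ± 0.31, with 3 of 4 DHT50 arrays below every control. HnRNP H3 and hnRNP M had -0.55 ± 0.37 and -0.60 ± 0.40, with 2 of 4 DHT50 arrays below every control in each. For hnRNP M these were DHT50 2 and 3, where its probe was not well above background. Under normexp the changes were -0.41 for hnRNP H3 and -0.13 for hnRNP M. HnRNP A2 homolog 1, hnRNP H and hnRNP G, the last related to the RNA-binding motif proteins of germ cells, had changes of 0.06 ± 0.31, 0.01 ± 0.33 and -0.02 ± 0.33. HnRNP Q and hnRNP A/B had 0.52 ± 0.53 and 0.48 ± 0.63. In hnRNP A/B the DHT50 arrays spread from -1.54 on DHT50 1 to 1.58 on DHT50 2, and the control arrays from -1.44 to 0.09. Protein arginine N-methyltransferase 3, which methylates RNA-binding proteins and is a member through its second name, stood at -2.97, -1.22, -2.35 and -2.55 in DHT50 testes, against -3.43, -3.11, -2.72 and -2.97 in control testes. DHT50 2, 3 and 4 were above every control and the change was 0.78 ± 0.41, or 0.43 without DHT50 2 and 0.28 under normexp.

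**Figure D3:**
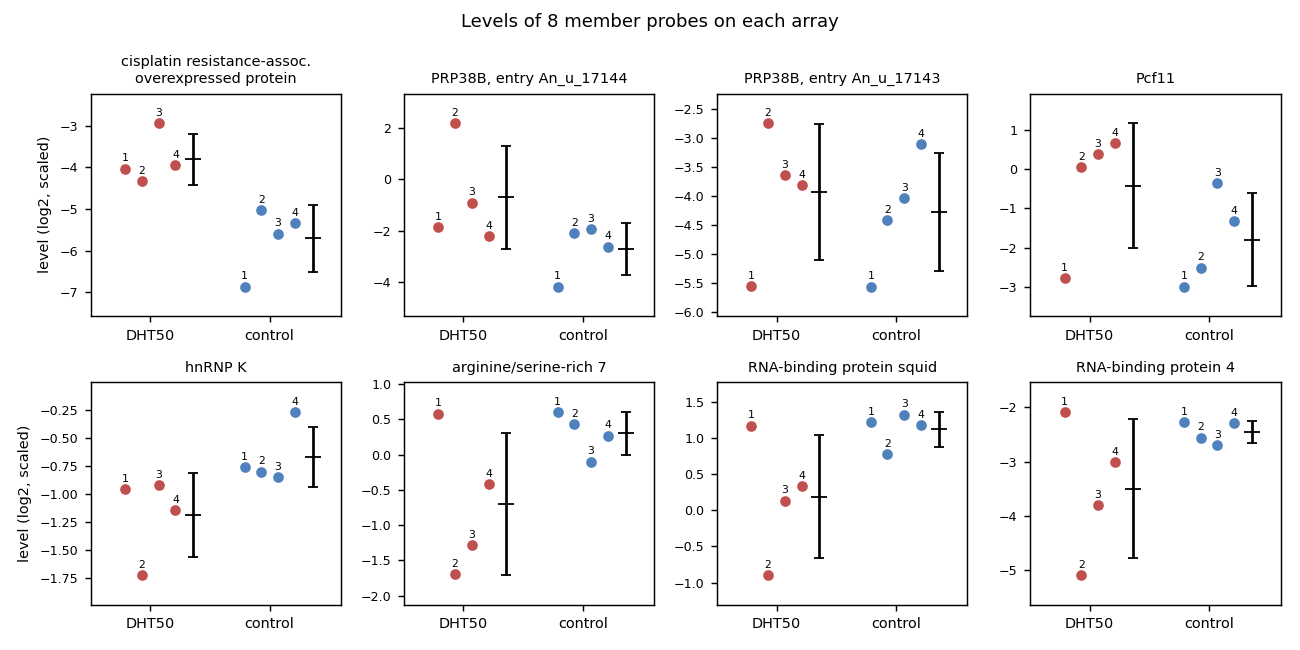
Level (log2, scaled to the 75th percentile of the array; vertical axis, own range in each panel) of 8 member probes on each array, with DHT50 in red on the left and control in blue on the right, numbered by replicate; black bars are mean ± SD of 4 arrays. Only cisplatin resistance-associated overexpressed protein (above) and hnRNP K (below) have every DHT50 array on one side of every control array.

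The pre-mRNA processing names held the members with the largest changes above 0, yet were evenly split, with 6 of 12 probes above 0 and 6 below and a median of 0.07, which was -0.05 under quantile normalization. Cisplatin resistance-associated overexpressed protein, a U1-associated SR-like protein also called LUC7L3, stood at -4.03, -4.33, -2.93 and -3.95 in DHT50 testes, against -6.86, -5.02, -5.59 and -5.34 in control testes. Every DHT50 array was above every control, which held for 1 of 91 members (1.1%) and for 1.27% of all tested probes. The change was 1.90 ± 0.48, the one member at an unadjusted p under 0.05 (limma unadjusted p = 0.00283, adjusted p = 0.685). The probe was dim. It was well above background on 3 of 4 DHT50 arrays and 1 of 4 control arrays. It thus passed the filter of 4 arrays mainly through the group where it was high. Its separation of the groups and its p rest on control signals mostly not well above background. Its 2 spots differed by a median of 0.79, where the median member's differed by 0.087, and under normexp the change was 0.59. With any 1 array left out it was between 1.51 and 2.12, where the separation of the groups fixed the sign in advance.

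PRP38 domain containing B, a relative of a yeast protein needed to activate the spliceosome, was read by 2 probes on 2 entries. The one named from mouse stood at -1.87, 2.21, -0.90 and -2.23 in DHT50 testes, against -4.19, -2.10, -1.96 and -2.63 in control testes. DHT50 1, 2 and 3 were above every control, DHT50 4 was within the control range, and the change of 2.02 ± 0.93 was the largest of any member. It was 4.01 within slide row 1, 0.0022 within slide row 2 and 1.05 without DHT50 2. The one named from human stood at -5.56, -2.74, -3.64 and -3.81 in DHT50 testes, against -5.56, -4.41, -4.04 and -3.11 in control testes, where the groups overlapped and the change was 0.34 ± 0.67. Pcf11, a protein of 3′ end cleavage that binds the polymerase, stood at -2.78, 0.05, 0.38 and 0.66 in DHT50 testes, against -2.98, -2.50, -0.37 and -1.31 in control testes. All DHT50 arrays but DHT50 1 were above every control, for a change of 1.37 ± 0.82, which was 0.40 with brightness as a covariate.

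PRP4 homolog B, a kinase of the spliceosome, and SR-A1, a polymerase-associated SR-like protein, had changes of 0.74 ± 0.42 and 0.77 ± 0.50, each with 3 of 4 DHT50 arrays above every control. With brightness as a covariate the changes were 0.33 for PRP4 homolog B and 0.02 for SR-A1. PRP4 homolog B was not well above background on DHT50 2, which is among its arrays above every control. Its change under normexp was 0.27. The names of Prp17, a factor of the second catalytic step, gave 3 probes with changes of -0.87 ± 0.53, -0.50 ± 0.34 and -0.37 ± 0.30. The probe at -0.87 was not well above background on DHT50 2. Its change was -0.32 without that array and -0.27 under normexp. The 2 probes named after DEAH box protein 15, the helicase that takes the spliceosome apart, had -0.40 ± 0.50 and -0.20 ± 0.55. Wilms' tumor 1-associating protein, part of the complex that methylates adenosine in mRNA, had -0.38 ± 0.39.

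Of 6 probes of other splicing factors 5 had a change below 0 and 1 above, with a median of -0.49. Over all tested probes 46.4% were below 0. The median of the 6 probes was -0.11 without DHT50 2, -0.55 within slide row 1 and 0.01 within slide row 2. Splicing factor 45, a regulator of the second step, stood at 1.48, -0.32, 0.73 and 1.46 in DHT50 testes, against 1.25, 1.67, 1.52 and 1.61 in control testes. DHT50 2 and 3 were below every control and the change was -0.67 ± 0.43, or -0.29 without DHT50 2. RNA-binding region containing protein 2 (RBM39, also known as HCC1), a splicing factor that also coactivates nuclear receptors, was read by 2 probes. One stood at -0.13, -2.02, -0.46 and -0.04 in DHT50 testes, against -0.15, 0.02, -0.22 and -0.01 in control testes, a change of -0.57 ± 0.45. The other had -0.56 ± 0.45. The low value of DHT50 2 carried both changes, which were -0.12 and -0.10 without it. Survival of motor neuron-related splicing factor 30, which joins the U2 particle to the rest of the machinery, had -0.43 ± 0.33, SLU7, a selector of the 3′ splice site, -0.08 ± 0.33, and the proline/glutamine rich factor (SFPQ) 0.34 ± 0.53.

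Both nucleolar names are subunits of the H/ACA particle, which turns uridine into pseudouridine in ribosomal and spliceosomal RNA. Subunit 4, the enzyme dyskerin, stood at -0.51, -2.68, -2.50 and -1.28 in DHT50 testes, against -0.67, -0.67, -1.18 and -0.72 in control testes. DHT50 1 was above every control and the other DHT50 arrays were below every control, and the change was -0.93 ± 0.49. It was -1.22 within slide row 1, -0.42 within slide row 2 and -0.32 with brightness as a covariate. Subunit 1 had -0.51 ± 0.36, was well above background on 2 of 4 DHT50 and 4 of 4 control arrays, and had 0.09 within slide row 2.

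The RNA-binding proteins lay near all tested probes, with 13 of 21 tested probes above 0 (61.9%, against 53.6% of all tested probes) and 8 below, a median of 0.08 against 0.06, and 0 at an unadjusted p under 0.05. With brightness as a covariate their median was -0.13, the same as that of all tested probes. RNA-binding protein 4, a regulator of splicing and translation, had the change farthest below 0 of any member. It stood at -2.08, -5.10, -3.81 and -3.02 in DHT50 testes, against -2.27, -2.56, -2.70 and -2.29 in control testes. DHT50 2, 3 and 4 were below every control and DHT50 1 was above every control. The change was -1.05 ± 0.58, or -0.39 under normexp and -0.51 without DHT50 2, where the probe was not well above background. Musashi homolog 2, a translational repressor of stem and germ cells, stood at -2.72, 0.04, 0.06 and 0.25 in DHT50 testes, against -2.30, -1.17, -1.06 and -1.65 in control testes. Here DHT50 2, 3 and 4 were above every control and DHT50 1 was below every control, for a change of 0.95 ± 0.66, or 0.08 with brightness as a covariate. Musashi homolog 1 had 0.20 ± 0.48.

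Cold-inducible RNA-binding protein, a stress-induced protein that is also abundant in germ cells, was read by 3 probes with changes of -0.50 ± 0.31, -0.48 ± 0.31 and -0.24 ± 0.32. The first stood at 4.50, 4.08, 3.71 and 4.33 in DHT50 testes, against 4.51, 4.73, 4.98 and 4.39 in control testes, with 3 of 4 DHT50 arrays below every control. Spermatid perinuclear RNA-binding protein, a double-stranded RNA-binding protein of developing sperm in mouse, stood at -2.86, -4.17, -3.68 and -4.08 in DHT50 testes, against -5.27, -4.08, -4.19 and -2.89 in control testes. The groups overlapped and the change was 0.41 ± 0.52. RNA-binding protein 5 (-0.01 ± 0.41), RNA-binding protein 10 (-0.02 ± 0.38) and RNA-binding protein 9, the Fox regulator also called RBFOX2 (-0.17 ± 0.31), are exon regulators with changes smaller than their SE. The 2 tested probes of probable RNA-binding protein 25 had 0.11 ± 0.36 and 0.23 ± 0.35. RNA-binding protein with multiple splicing and its homolog Hermes had 0.14 ± 0.30 and 0.05 ± 0.48, and IGF-II mRNA-binding protein 2 and Staufen, which carry and anchor mRNA, had 0.08 ± 0.41 and 0.08 ± 0.54. RNA-binding protein 28 had 0.61 ± 0.69.

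**Figure D4:**
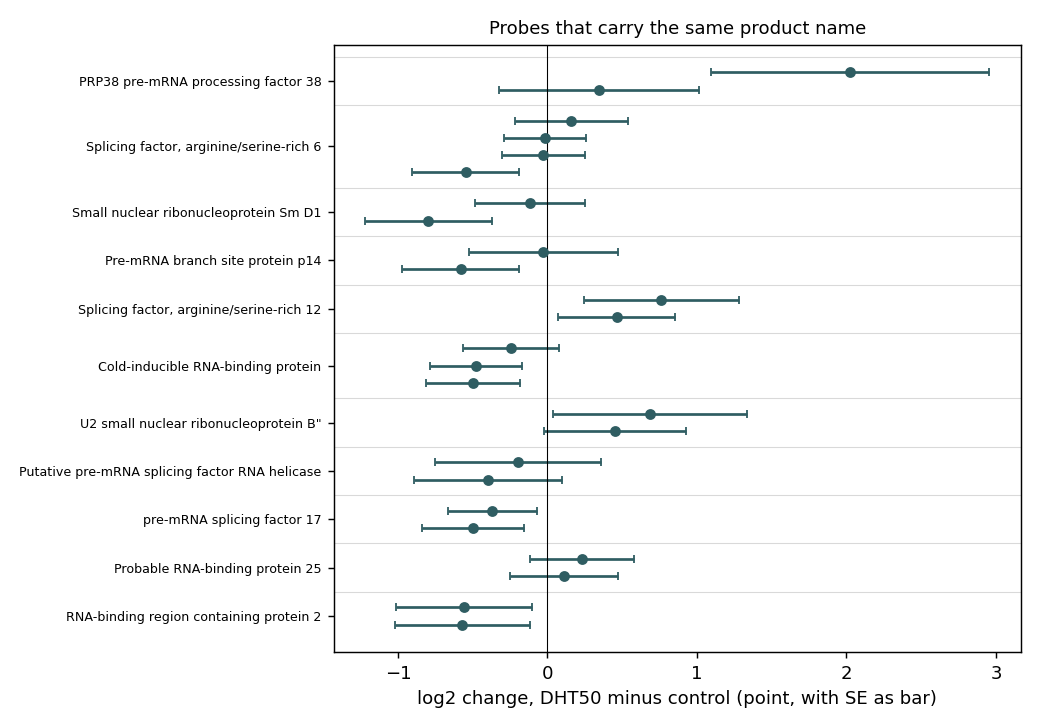
Log2 change (DHT50 minus control, horizontal axis; bars are SE) of the probes that share a product name, 1 point per probe. Probes of PRP38 domain containing B are 1.68 apart, those of arginine/serine-rich 6 up to 0.71 and those of Sm D1 0.68, while the pair for RNA-binding region containing protein 2 is 0.011 apart.

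The spread within the DHT50 group was wider than within the control group. The SD was larger among DHT50 than among control arrays in 74 of 91 members, or 81.3%, against 69.3% of all tested probes, and the median SD was 0.65 in DHT50 and 0.35 in control. Over all tested probes the median SDs were 0.71 in DHT50 and 0.50 in control. DHT50 2 was the lowest of all 8 arrays in 33 of 91 members (36.3%), against 24.8% of all tested probes, and the highest in 20 (22.0%), against 29.1%. At least 3 DHT50 arrays were below every control in 19 members (20.9%), against 13.5% of all tested probes, and above every control in 11 (12.1%), against 17.9%. Taking each array's deviation from the probe means, the median over the members was -0.03, -0.28, -0.17 and 0.21 on DHT50 arrays 1 to 4, against -0.09, 0.26, -0.03 and 0.26 on control arrays 1 to 4. DHT50 2 and 3 were thus low, and DHT50 4 was above controls 1 and 3 and below controls 2 and 4. For snRNP and Sm names the medians were -0.03, -0.58, -0.33 and 0.23 on the DHT50 arrays, against 0.21, 0.44, -0.04 and 0.26 on the control arrays. DHT50 2 and 3 were also the dimmest arrays of the slide. The part of brightness in these values was not tested apart from the fit with it as a covariate. In that fit 19 of 20 snRNP and Sm probes had a change below 0 (median -0.33), as did 65.0% of all tested probes (median -0.13). The median of the SF3 group went from -0.57 to -0.18 with the covariate, and that of other splicing factors from -0.49 to -0.14. For the nucleolar group it went from -0.72 to -0.29.

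**Figure D5:**
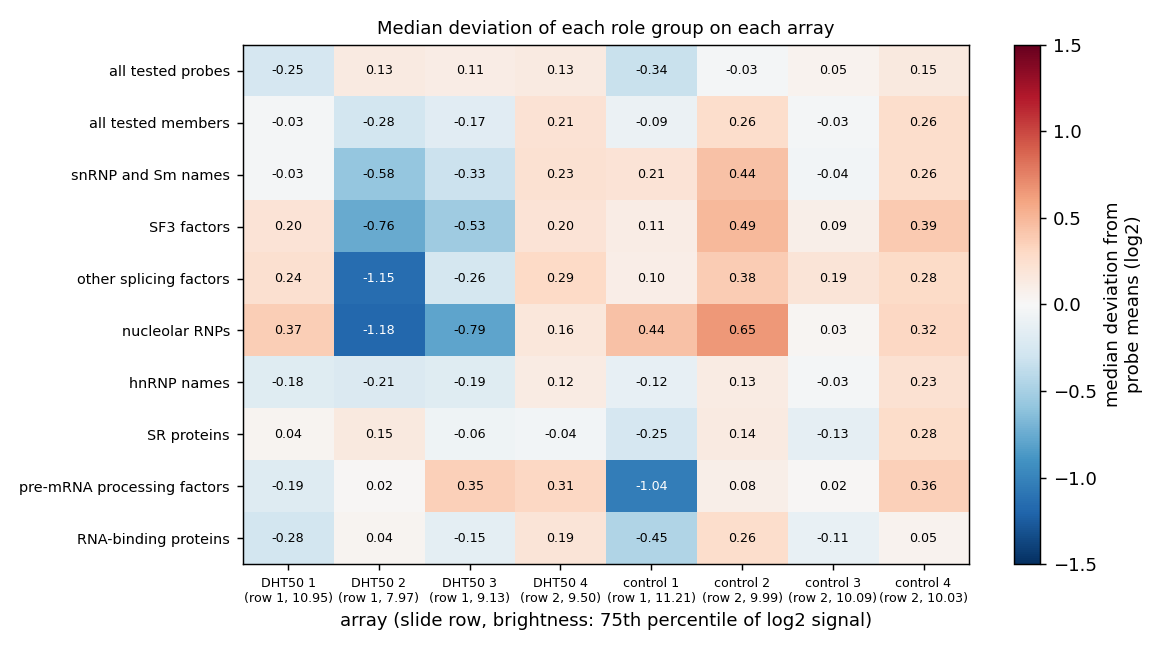
Median deviation (log2, colour and printed value) of each role group from the probe means on each array, DHT50 arrays on the left and control arrays on the right, with slide row and brightness under each array. The snRNP, SF3, other splicing factor and nucleolar groups have their lowest values on DHT50 2 and 3, and the pre-mRNA processing group on control 1 (-1.04).

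Other steps of mRNA processing were read from lists of names that the member rule does not take, with the brightest probe of each name. Limma called 0 names at an adjusted p under 0.05 in each of the 6 lists. At an unadjusted p under 0.05 it called 1 name in all, where 4.71% of all tested probes passed. That name was DDX1, an RNA helicase of the tRNA ligase complex, 1 of 19 RNA helicases tested, which as a list had 11 above 0 and 8 below and a median of 0.04. DDX1 stood at -1.46, -2.86, -3.15 and -2.41 in DHT50 testes, against -1.54, -1.34, -1.74 and -1.50 in control testes, with 3 of 4 DHT50 arrays below every control and a change of -0.94 ± 0.40. DHX8, which releases finished mRNA from the spliceosome, had -0.63 ± 0.35. Of 5 tested names of export and the exon junction 4 were below 0, with a median of -0.33. Among them mago nashi homolog, a core protein that marks spliced junctions, stood at 1.37, 0.07, 0.26 and 0.83 in DHT50 testes, against 1.59, 1.56, 1.10 and 1.43 in control testes, a change of -0.79 ± 0.36. THO complex subunit 4, the adaptor that hands mRNA to the export receptor, had -0.57 ± 0.40. The 4 kinases of SR proteins tested were all below 0 with a median of -0.19, led by SPRK1 at -0.80 ± 0.50, while CLK1 had -0.23 ± 0.35 and SPRK2 -0.0065 ± 0.42. The 7 names of 3′ end formation and poly(A) binding had 4 above 0 and 3 below, with a median of 0.04, and the 5 other splicing regulators had 4 above 0 and 1 below, with a median of 0.19. Sam68, a signal-responsive regulator of splicing, had -0.61 ± 0.34 under one of its design names and 0.19 ± 0.44 under another.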

How the data were processed

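Testis RNA of 4 DHT50 and 4 control males was measured on 8 arrays, with groups and replicate numbers from the sample titles. Per the file headers, the arrays were read with Agilent Feature Extraction 10.7.1.1, and its processed signal, a background-subtracted and detrended intensity, was deposited for each spot. Normexp used the deposited median intensities of spot and local background, and no mean spot signal. Deposited flags, which are other values than intensities, marked spots well above background, outliers and saturation, per the file headers; 0 spots were saturated, 28 of 114512 readings were left out as outliers, and 0 of these were on member probes. The authors also deposited log2 values whose median was 7.47 on each array and which, over spots, correlated at 0.995 to 1.00 with the scanner values of their own array; how they were made is not stated.

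The log2 signal minus each array's 75th percentile was fitted with R 4.3.3 and limma 3.58.1 (two-sided moderated test of lmFit and eBayes, Benjamini-Hochberg over 5989 probes), without a replicate block. The fit was tested on simulated data in which probes varied independently, with no array-wide differences such as those in brightness or slide row. The number of arrays limits the precision (median SE 0.45 over all tested probes). Role groups follow the first matching name: U2AF 35 kDa stands with snRNP names, protein arginine N-methyltransferase 3 with hnRNP names and SR-A1 with pre-mRNA processing names. Members named by rule were those at an unadjusted p under 0.05, the 2 of smallest p and the 2 brightest of each role group, members with several probes, and up to 3 names of each list; hnRNP K, Pcf11 and other members outside it were described after their values were seen. Members and lists were chosen with earlier results of these data known, so no list was tested as a set. Alternatives were normexp (offset 50), quantile and median normalization, the deposited table, other filters, trend and robust moderation, array weights, replicate and slide row blocks, each row alone, brightness as a covariate, and arrays left out. No coordinates or sequences are given, since the names of the design were used as they stand.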

Additional observations from a re-analysis of the deposited data

Results flagged for a closer look

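Within each group of 4 arrays the highest and lowest value of a named member were compared with the rest by Dixon's gap ratio at its 95% critical value. Of 82 such groups 7 held an array that stood apart, and chance gives about 1 in 20. RNA-binding region containing protein 2, on the probe of entry AN_v_17489, stood at -1.95 on DHT50 2, the nearest other DHT50 array being at -0.27. Arginine/serine-rich 3 stood at -0.021 on DHT50 2, with the nearest DHT50 array at 1.09. Splicing factor 3b subunit 4 stood at 1.02 on DHT50 3, with the nearest DHT50 array at 3.30. U2AF 35 kDa had an array apart in both groups, DHT50 1 at 0.072 above a nearest DHT50 array at -1.01, and control 1 at -0.36 below a nearest control array at -0.01. Arginine/serine-rich 6, on the probe of entry An_u_18461, stood at 1.84 on control 3, with the nearest control array at 2.10. Subunit 4 of the H/ACA particle stood at -1.18 on control 3, with the nearest control array at -0.72.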

How the results depend on the processing

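The count at an adjusted p under 0.05 was 0 under each of the 22 alternatives (limma). The count of members at an unadjusted p under 0.05, 1 in the reported fit, was 0 with normexp (1.35% of all tested probes) and 0 with probes above background on all 8 arrays (5.39%), 2 with trend and robust moderation (4.91%), 21 with array weights (21.4% of all tested probes), 3 with the slide row as a block, 2 in slide row 1 alone, 4 in slide row 2 alone, and 1 to 20 with 1 array left out. With the replicate block it was 8, 9.97% of all tested probes, and 0 after adjustment. Same-numbered arrays correlated in their deviations at 0.20, 0.16, 0.38 and -0.11. Of the DHT50 arrays, 3 of 4 correlated best with the control of their own number. Whether arrays were paired was not tested, and DHT50 1 and control 1 also share slide row 1. The labels state no pairing and the correlation of the fourth pair was below 0, so the fit without the block was kept. The member median was -0.27 to -0.04 with 1 array left out and 0.0022, on the other side of 0, in slide row 2 alone. For the 41 named probes a sign was read as turned only where the reported change exceeded its SE. In slide row 2 alone this held for Sm F (0.48), branch site protein p14 (0.054), H/ACA subunit 1 (0.088) and 1 probe of RNA-binding region containing protein 2 (0.032); U2 B″ had -0.27 with brightness as a covariate and -0.24 without control 1 and DHT50 2. The cause was not tested, and slide row 2 holds 1 DHT50 array, so its spread is taken from the control arrays. Signal over background limits the 19 tested members that were dim on DHT50 2.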
